A study of Mus musculus with 8 samples.

Results

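Matrix metalloproteinases (MMPs), ADAMTS proteinases and tissue inhibitors of metalloproteinases (TIMPs) were examined in skin fibroblasts of Nd2-mutant and control mice. Members were all probes whose gene symbol was Mmp or Adamts followed by a number, with or without a letter after it for Mmp, or Timp1 to Timp4. The rule selected 54 of the 25697 probes on the array, for 40 of 18138 gene symbols, and used no measured value.

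The study compared conplastic mice, which share the nuclear genome of C57BL/6J and differ in the mitochondrial genome. C57BL/6J-mtALR/LtJ mice carry a variant of the mitochondrial gene for NADH dehydrogenase subunit 2 and are called Nd2-mutant, and C57BL/6J-mtAKR/J mice were the control. Primary fibroblasts of passage 1 were grown from skin of mice aged 12 months, and RNA of each mouse was hybridised to 1 Illumina MouseRef-8 v2.0 array. Mice 28 and 32 (male) and 34 and 35 (female) were Nd2-mutant, and mice 16 and 17 (male) and 15 and 37 (female) were controls, so that n = 4 mice per strain.

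MMPs are zinc-dependent enzymes that cut collagens and other proteins of the extracellular matrix. Most are made as inactive proenzymes and are activated by removal of a prodomain. ADAMTS proteinases are secreted relatives that process procollagens or cut large proteoglycans, and TIMPs bind the active site of these enzymes and block it. Dermal fibroblasts are a main source of all 3 families in skin, and several MMPs belong to the factors that senescent fibroblasts are known to secrete.

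A cluster of MMP genes on chromosome 9 holds collagenases, stromelysins and Mmp12, and several of its genes are known to respond to the transcription factor AP-1. In the RefSeq annotation of GRCm38.p6 the order is Mmp13, Mmp12, Mmp1b, Mmp3, Mmp1a, Mmp10, Mmp8, Mmp27, Mmp20 and Mmp7, with no other protein-coding gene between them. RefSeq promoters (300 bases, from 250 before to 50 after the start) were matched by symbol for 29 of the 40 genes, and those of Mmp2, Mmp9 and Mmp17 were not among them. The AP-1 letters TGAGTCA, or TGACTCA on the other strand, were found in 7 of 32 promoters of members (21.9%) and in 5.2% of all 32851 promoters. The TATA letters TATAAA, or TTTATA on the other strand, were in 11 promoters of members (34.4%) and in 13.6% of all promoters. Both were found in 7 promoters of members (21.9%) and in 0.941% of all. These 7 were the promoters of Mmp1a, Mmp1b, Mmp3, Mmp7, Mmp10, Mmp12 and Mmp13, each of them in the cluster. The matched promoters of Mmp8, Mmp20 and Mmp27, also in the cluster, did not hold the AP-1 letters. A match is a description of the letters only, and the letters of the 2 motifs cannot share a base. The 100 bases before the start of 4 cluster genes measured in these cells are shown, because their probes varied most between mice or lay beside those that did, together with those of Timp3, which lay outside the cluster and had 1 of the 2 probes that differed between the strains before adjustment. All are on the + strand of GRCm38.p6, and capitals mark AP-1 and TATA letters.
Mmp13, chr9:7272414-7272513: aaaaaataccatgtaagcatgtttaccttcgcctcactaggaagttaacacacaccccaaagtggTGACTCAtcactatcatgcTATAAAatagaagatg
Mmp3, chr9:7445722-7445821: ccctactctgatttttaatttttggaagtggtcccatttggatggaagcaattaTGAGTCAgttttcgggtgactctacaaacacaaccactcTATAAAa
Mmp12, chr9:7347274-7347373: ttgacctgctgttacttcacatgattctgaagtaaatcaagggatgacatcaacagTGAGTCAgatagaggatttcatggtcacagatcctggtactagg
Mmp1a, chr9:7464041-7464140: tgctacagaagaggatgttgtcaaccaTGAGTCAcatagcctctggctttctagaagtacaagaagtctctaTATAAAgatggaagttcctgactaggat
Timp3, chr10:86300312-86300411: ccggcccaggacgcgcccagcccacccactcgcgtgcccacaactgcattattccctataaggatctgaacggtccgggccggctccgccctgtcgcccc
The AP-1 letters began 35 bases before the start in Mmp13, 46 in Mmp3, 44 in Mmp12 and 73 in Mmp1a. The window of Timp3 held neither set of letters, and the TATA letters of Mmp12 lay outside the 100 bases shown.

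Detection was set at a detection p-value under 0.01, and a probe entered the tests where every array of 1 strain or of both detected it. This kept 23 of the 54 probes (42.6%), for 17 of the 40 genes, whereas 10414 of all probes (40.5%) were kept. All 23 were detected on 8 of 8 arrays. The remaining probes comprised 23 that were detected on no array and 8 that were detected on some arrays. Genes seen on no array were Mmp1b, Mmp7, Mmp8, Mmp16, Mmp20, Mmp21, Mmp24, Mmp27, Adamts3, Adamts8, Adamts12, Adamts17, Adamts18, Adamts19, Adamts20 and Timp4, and no probe was found for Adamts5. Adamts13, Adamts15, Adamts16, Mmp15, Mmp19, Mmp28 and Mmp10 were detected on some arrays without passing the filter, as was another probe of Adamts1 (ILMN_1238495, -3.73 to 20.1). The stromelysin Mmp10 was detected on 6 arrays at intensities from 5.15 to 33.0.

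The array of control mouse 15 stood apart from the rest. Its mean correlation with the other arrays was 0.934, and those of the other 7 arrays were between 0.963 and 0.974. Of all tested probes, 26.5% had their highest and 31.4% their lowest value in this mouse. Differences between the strains are therefore given with and without it. The summed intensity of 10 of 10 tested fibroblast marker genes (such as Col1a1, Pdgfra and Vim) was between 36655 and 42247 in Nd2-mutant mice and between 30011 and 43721 in controls. Of 14 macrophage markers 13 were detected on at least 1 array, and their sum was 368 to 2141 and 297 to 690, with Ptprc, which marks all leukocytes, detected on none. The sums for 6 endothelial markers were 130.4 to 239 and 217 to 564, and for 6 markers of smooth muscle and pericytes 963 to 1109 and 1099 to 1737. Of the endothelial sums, Emcn alone had 50.9 to 124 in Nd2-mutant mice and 125 to 272 in controls. Cdh5, Pecam1 and Tek overlapped between the strains. The brightest smooth muscle and pericyte probe was 1 of Smtn (ILMN_2695181), with 499 to 571 and 552 to 773. Keratinocyte markers (6 on the array) had sums of 196 to 1167 and 316 to 949. None of 5 melanocyte and 5 adipocyte markers was tested, and their sums were at most 31.9 and 41.0. In cultures of this kind, fewer cells of a type and less RNA per cell cannot be told apart.

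In the comparison of the strains, no member reached an adjusted p under 0.05 with limma, and neither did any of the 10414 tested probes (0%). Differences are log2 fold changes of intensity plus 16, Nd2-mutant minus control. At an unadjusted p under 0.05 there were 2 of 23 members (8.7%), against 7.63% of all tested probes, and both were lower in Nd2-mutant mice. Over all tested probes 3.13% were lower and 4.5% higher at this p. They were the probe of Mmp17 and 1 of 2 probes of Timp3. The same 2 probes had no overlap between the strains (8.7%, against 4.37% of all tested probes, with 2.13% lower and 2.24% higher). The share of members at this p was near that of all probes, and the shares of lower members and of members without overlap, which rest on these 2 probes, were above it. Of the 23 differences, 15 were below 0 and 8 above, with a median of -0.14. Over all tested probes 49.8% were below 0 and the median was 0.00093.

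Membrane-type MMPs are held at the cell surface. Mmp17 encodes MT4-MMP, which is tied to the membrane by a lipid anchor. Its probe (ILMN_2773800, chromosome 5) had intensities of 71.0 in Nd2-mutant mouse 28, 102 in mouse 32, 74.1 in mouse 34 and 92.8 in mouse 35. In control mice it had 317 in mouse 15, 212 in mouse 16, 141 in mouse 17 and 204 in mouse 37. Every control lay above every Nd2-mutant mouse, and the males and females of a strain lay among each other. The means were 84.9 ± 14.8 (SD, n = 4) and 218 ± 72.7, and the log2 fold change was -1.18 with a standard error (SE) of 0.22 and a 95% confidence interval from -1.66 to -0.69, which is 2.26-fold lower on that scale. The unadjusted p was 0.000272, rank 3 among all tested probes, but the adjusted p was 0.639 with limma. The exact permutation test gave p = 0.0286, the smallest value that 4 against 4 allows and the value of every probe without overlap. Without control mouse 15 the log2 fold change was -0.99. It was -0.90 between the males and -1.45 between the females. Some markers of other cell types were lower as well at an unadjusted p under 0.05 (limma). They were the endothelial marker Emcn (log2 fold change -1.20, unadjusted p = 0.00117), whose strains did not overlap, and the smooth muscle and pericyte markers Myh11 (-1.06, unadjusted p = 0.0150) and Cspg4 (-0.54, unadjusted p = 0.0132), each with an adjusted p of 0.639. Of 11 fibroblast probes 2 were higher at this p, that of Lum (0.88) and 1 of Dcn (0.82), where 4.5% of all tested probes were higher. For macrophages 0 of 7 and for keratinocytes 0 of 2 probes were at this p. The lower markers were 1 of 4 endothelial and 2 of 6 smooth muscle and pericyte probes tested, where 3.13% of all tested probes were lower. In the endothelial list 1 probe was higher (Tek, 0.49) and 3 were lower. Among smooth muscle and pericyte probes 1 was higher (a probe of Smtn, 0.09) and 5 were lower. Kdr, Cnn1 and Rgs5 of the same lists were detected on no array. The part of such cells in the values of Mmp17 and the other members was not tested.

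Mmp14 encodes MT1-MMP, which cuts collagen at the cell surface and activates the proenzyme of Mmp2. Its probe (ILMN_1240726) was among the 6 brightest members, with 4149, 4420.1, 4050.2 and 5393 in Nd2-mutant mice 28, 32, 34 and 35, and 7570.2, 4648, 4164 and 4438 in control mice 15, 16, 17 and 37. Only mouse 15 stood high, and the other 7 mice overlapped. Its log2 fold change was -0.17 (95% confidence interval -0.62 to 0.27, adjusted p = 0.804, limma) and turned to 0.02 without mouse 15. The other membrane-type genes, Mmp15, Mmp16 and Mmp24, did not pass the filter.

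**Figure D1:**
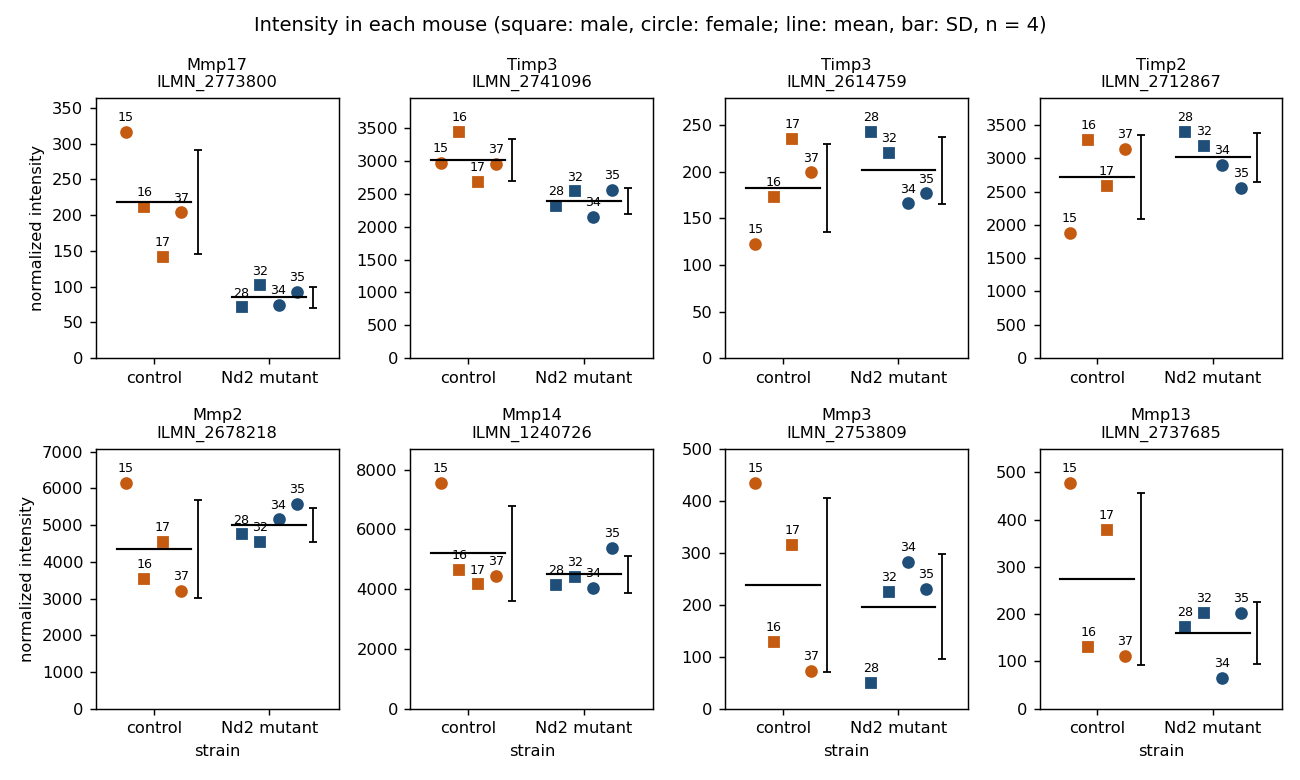
Normalized intensity (linear scale) of 8 named probes in each mouse, by strain, with numbers that name the mice, squares for males, circles for females, a line at the mean and a bar of 1 SD (n = 4). The strains did not overlap for Mmp17 and for Timp3 ILMN_2741096, and control mouse 15 was the highest of the controls for Mmp2, Mmp14, Mmp3 and Mmp13 and the lowest for Timp2 and for Timp3 ILMN_2614759.

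The inhibitors were measured by 5 probes. Timp3, which stays bound to the matrix and inhibits ADAMTS enzymes as well as MMPs, had probes of opposite sign. ILMN_2741096 had 2322, 2538, 2154 and 2566 in Nd2-mutant mice 28, 32, 34 and 35, and 2975, 3445, 2682 and 2952 in control mice 15, 16, 17 and 37. All controls lay above all Nd2-mutant mice for this probe. The log2 fold change was -0.33 (SE 0.14), with an unadjusted p of 0.0368 and an adjusted p of 0.639 (limma), and the exact permutation test gave p = 0.0286. It was -0.33 without mouse 15, but the unadjusted p rose above 0.05 when Nd2-mutant mouse 28, 32 or 34 or control mouse 16 or 37 was left out.

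The other Timp3 probe, ILMN_2614759, had 243, 220.4, 166 and 177 in Nd2-mutant mice and 123, 173, 236 and 199 in controls 15, 16, 17 and 37. Here the strains overlapped and the lowest value was that of mouse 15. The difference was 0.15 (log2 fold change, SE 0.20, 95% confidence interval -0.30 to 0.60), and it was -0.01 without mouse 15. Over the 8 mice the probes of Timp3 did not move together (Pearson r = -0.32, exact permutation p = 0.438; Spearman rho = -0.33, p = 0.428), and without the 2 mice farthest from the median r was 0.04. The positions of the probes in the transcript were not used here, so the difference seen with ILMN_2741096 rests on that probe alone.

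Timp1, a soluble inhibitor of most secreted MMPs, was among the brightest members in both strains. Its probe ILMN_3103896 (X chromosome) had 4983, 7163, 7637 and 5649 in Nd2-mutant mice 28, 32, 34 and 35, and 7163, 8341, 6373 and 5936 in control mice 15, 16, 17 and 37. The strains overlapped, and the log2 fold change was -0.14 (95% confidence interval -0.53 to 0.26, adjusted p = 0.822, limma). The other probe, ILMN_2769918, gave 5038, 7119, 7570.2 and 5965 against 6543, 7872, 6276 and 6719, and a difference of -0.11 on the log2 scale. Both probes were lowest in Nd2-mutant mouse 28 and highest in control mouse 16. They moved together over the 8 mice (r = 0.93, exact permutation p = 0.00104, adjusted over 8 probe pairs 0.00417; rho = 0.91, p = 0.00298, adjusted 0.0238), with r = 0.80 without the 2 mice farthest from the median.

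Timp2 inhibits MMPs and also takes part in the activation of pro-Mmp2 by Mmp14. Its intensities (ILMN_2712867) were 3395, 3189, 2905 and 2556 in Nd2-mutant mice and 1881, 3276, 2579 and 3141 in controls 15, 16, 17 and 37. Mouse 15 lay below all other mice. The log2 fold change of 0.17 (95% confidence interval -0.26 to 0.60, adjusted p = 0.798, limma) fell to 0.01 without that mouse.

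The gelatinases cut denatured collagen and collagen of basement membranes. Mmp2, the gelatinase that fibroblasts make constitutively, had intensities (ILMN_2678218) of 4746, 4540.3, 5154 and 5569 in Nd2-mutant mice 28, 32, 34 and 35, and 6156, 3525, 4540.3 and 3201 in control mice 15, 16, 17 and 37. The Nd2-mutant mice lay close together, and the controls ranged both above and below them. Between the strains the log2 fold change was 0.24 (95% confidence interval -0.21 to 0.69, adjusted p = 0.729, limma). Without mouse 15 it was 0.42, with an unadjusted p of 0.0206 and an adjusted p of 0.602.

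Mmp9, the gelatinase better known from leukocytes and stimulated cells, had intensities (ILMN_2711075) of 28.9, 70.3, 24.7 and 19.4 against 73.3, 35.6, 42.3 and 34.3 in the same order of mice. Nd2-mutant mouse 32 and control mouse 15 exceeded all others, and the log2 fold change was -0.32 (adjusted p = 0.744, limma). Without mouse 32 it was -0.60, at an unadjusted p of 0.0250 and an adjusted p of 0.714 (limma). In that fit 2 of 23 members (8.7%) and 6.59% of all probes had an unadjusted p under 0.05.

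Collagenases make the initial cut in fibrillar collagen, and Mmp13 is the main collagenase of the mouse. Its intensities (ILMN_2737685) were 173, 203, 65.0 and 202 in Nd2-mutant mice and 478, 132, 378 and 112 in control mice 15, 16, 17 and 37. Controls 15 and 17 were above all other mice and controls 16 and 37 below most, so that the control SD of 182 was wide beside a mean of 275. The log2 fold change of -0.58 (SE 0.47, adjusted p = 0.718, limma) was -0.25 without mouse 15. Mmp1a, the mouse relative of human interstitial collagenase, was dim at 13.3 to 39.2 (log2 fold change -0.22, adjusted p = 0.713, limma).

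The stromelysin Mmp3 degrades proteoglycans and fibronectin and activates other pro-MMPs, and it was measured by 3 probes. ILMN_2899041 had 69.2, 329.8, 342 and 285 in Nd2-mutant mice 28, 32, 34 and 35 and 821, 229, 283 and 111 in control mice 15, 16, 17 and 37. ILMN_2753809 had 50.2, 225, 282 and 230.5 against 436, 129, 316 and 72.9. ILMN_2704576 had 24.7, 129, 162 and 134 against 88.1, 39.3, 184 and 37.1. In each probe, mouse 28 was the lowest of all mice, mouse 37 the lowest of the controls, and mice 32, 34 and 35 lay close together.

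The highest value of Mmp3 was 7.47 to 11.9 times the lowest within a probe, yet the strains overlapped throughout. The log2 fold changes were -0.33, -0.18 and 0.34, with SEs from 0.52 to 0.58 (adjusted p from 0.850 to 0.930, limma), and the 95% confidence intervals reached from -1.61 to 1.49 over the 3 probes. Without mouse 15 all 3 were above 0, at 0.17, 0.19 and 0.42. Of the 3 pairs of Mmp3 probes, ILMN_2753809 and ILMN_2899041 moved together over the 8 mice (r = 0.95, exact permutation p = 0.000397, adjusted 0.00317; rho = 0.83, p = 0.0154, adjusted 0.0410), with r = 0.80 without the 2 mice farthest from the median. For ILMN_2704576 and ILMN_2753809 r was 0.85 (exact permutation p = 0.00982, adjusted 0.0262) and rho 0.76 (p = 0.0368, adjusted 0.0735), and r was 0.57 without the 2 mice farthest from the median of ILMN_2704576. For ILMN_2704576 and ILMN_2899041 r was 0.66 (exact permutation p = 0.0759, adjusted 0.101) and rho 0.60 (p = 0.132, adjusted 0.212), and r was 0.03 without the same 2 mice, on which this relation rests. Mmp11, a stromelysin by name that is cleaved by furin-like enzymes inside the cell, had 205 to 335 in Nd2-mutant mice and 223 to 476 in controls (log2 fold change -0.11, adjusted p = 0.899, limma).

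Mmp12, the macrophage elastase, had intensities (ILMN_1250421) of 35.7, 43.9, 30.7 and 79.6 in Nd2-mutant mice 28, 32, 34 and 35 and 109, 17.9, 50.8 and 22.8 in control mice 15, 16, 17 and 37. The highest mice of each strain were 35 and 15. In the Nd2-mutant strain mouse 35 also had the highest summed macrophage markers, at 2141 against 368 to 489.7. The other Nd2-mutant mice did not follow the sums, since mouse 32 had the highest Mmp12 of them and the lowest sum. Among controls the sums were 690.4 in mouse 15, 622 in mouse 17, 334 in mouse 37 and 297 in mouse 16. This was the order of their Mmp12 values. Of the sum of mouse 15, 443 came from Laptm5 alone. Without Laptm5 mouse 15 had 247, below the 454 of mouse 17. Mouse 37, with 224, and mouse 16, with 149, kept their places. The part of macrophages in the values of Mmp12 was not tested. For Mmp12 the log2 fold change was 0.08 (adjusted p = 0.957, limma). Mmp23, which is anchored by its own signal sequence, had 1066 to 1369.7 in Nd2-mutant mice and 957 to 2025 in controls (log2 fold change -0.10, adjusted p = 0.899, limma).

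Among the ADAMTS enzymes that cut proteoglycans, Adamts1 had the highest log2 fold change of all tested members. Its probe (ILMN_2761082, chromosome 16) had 226, 143, 142 and 205 in Nd2-mutant mice 28, 32, 34 and 35 and 105, 54.0, 124 and 208 in control mice 15, 16, 17 and 37. Controls 15, 16 and 17 lay below all Nd2-mutant mice, but control 37 reached the level of mouse 35. The strains differed by a log2 fold change of 0.58 (SE 0.31, 95% confidence interval -0.11 to 1.27), with an unadjusted p of 0.0894, an adjusted p of 0.643 (limma) and p = 0.171 in the exact permutation test. It was 0.56 without mouse 15, and without control mouse 37 it was 0.85, at an unadjusted p of 0.0097 and an adjusted p of 0.441 (limma). In that last fit 2 of 24 members (8.33%) and 10.8% of all probes had an unadjusted p under 0.05. Adamts4, an aggrecanase, had 199, 224, 106 and 142 against 208, 189, 256 and 179, and the log2 fold change was -0.32 (adjusted p = 0.687, limma).

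Adamts2 removes the amino-terminal propeptide of procollagens, and its 3 probes (chromosome 11) gave differences of both signs. The probe ILMN_2729103 had 5154, 5761, 6321 and 6671 in Nd2-mutant mice 28, 32, 34 and 35 and 9261, 4902, 5279 and 4746 in control mice 15, 16, 17 and 37. ILMN_1226259 had 3974, 3512, 3726 and 4420.1 against 4438, 2826, 3428 and 2994. ILMN_1221851 had 743, 788, 911 and 1186 against 2154, 973, 949.7 and 863. Mouse 15 was the highest of the 8 mice in all 3 probes.

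For Adamts2 the log2 fold changes were 0.03, 0.21 and -0.36 in this order (adjusted p from 0.714 to 0.970, limma). Without mouse 15 they were 0.26, 0.34 and -0.06. The value of 0.34 for ILMN_1226259 then came with no overlap between the strains and an unadjusted p of 0.0310 (adjusted p = 0.602, limma). Adamts7, which cuts cartilage oligomeric matrix protein, had 21.4 to 58.5 in Nd2-mutant mice and 31.9 to 128 in controls (log2 fold change -0.33, adjusted p = 0.769, limma, and -0.0030 without mouse 15).

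**Figure D2:**
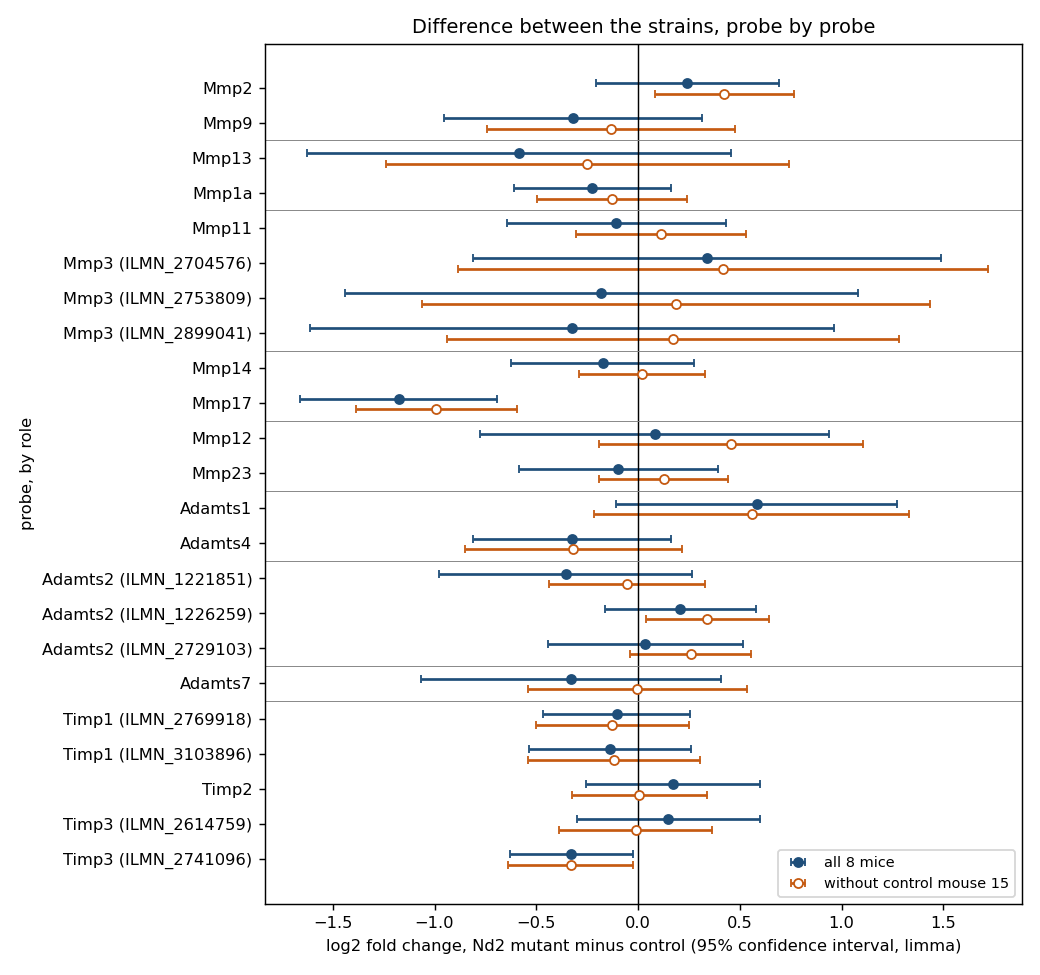
Log2 fold change (Nd2-mutant minus control, points) with its 95% confidence interval (bars, limma) for the 23 tested probes, grouped by role, with all 8 mice (filled) and without control mouse 15 (open). The interval lay wholly below 0 for Mmp17 and for Timp3 ILMN_2741096 in both fits, and for Mmp2 and Adamts2 ILMN_1226259 it lay above 0 only without mouse 15.

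Control mouse 15 had the highest of the 8 values in 15 of the 23 member probes (65.2%, against 26.5% of all tested probes). Among the 12 MMP probes it was highest in 11, and the exception was Mmp3 ILMN_2704576, where control mouse 17 was highest. It was the lowest in 2 probes, those of Timp2 and of Timp3 ILMN_2614759. Nd2-mutant mouse 28 was the lowest in 9 member probes (39.1%, against 14.5%), among them all 3 of Mmp3 and both of Timp1. Mouse 15 also had the highest sums among all mice for fibroblast (43721), endothelial (564) and smooth muscle and pericyte markers (1737), and the part of these cells in its MMP values was not tested.

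Without mouse 15, Mmp28 also passed the filter, and of the 24 tested members 12 were higher and 12 lower, with a median of 0.0013 in place of -0.14. The sign changed in 6 of the 23 probes tested in both fits. These were Mmp3 ILMN_2753809 and ILMN_2899041, Mmp11, Mmp14, Mmp23 and Timp3 ILMN_2614759. At an unadjusted p under 0.05 there were 4 of 24 members (16.7%, against 7.91% of all probes tested without this mouse), and 3 had no overlap (12.5%, against 8.03%). The 4 were Mmp17 and Timp3 ILMN_2741096, which were lower, and Mmp2 and Adamts2 ILMN_1226259, which were higher. The smallest adjusted p of a member was 0.571 (limma).

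**Figure D3:**
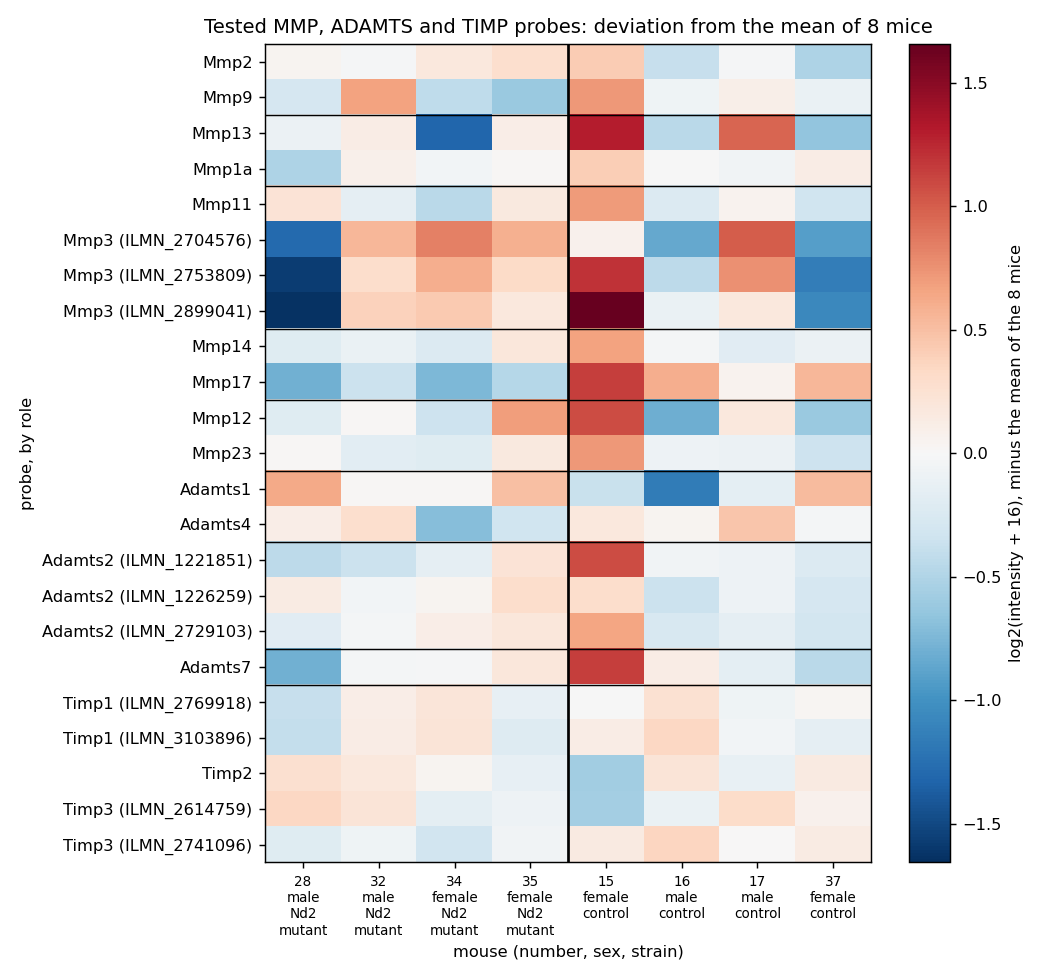
Deviation of each mouse (columns) from the mean of the 8 mice, on the scale of log2(intensity + 16), for the 23 tested probes (rows, grouped by role), with red above and blue below the mean. The column of control mouse 15 was red in nearly all MMP and Adamts2 rows and blue for Timp2 and Timp3 ILMN_2614759, and the rows of Mmp3 held both the deepest blue (mouse 28) and the deepest red (mouse 15).

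Members varied more between mice of a strain than most probes. The SD within strain on the log2 scale had a median of 0.35 over the 23 members and 0.26 over all tested probes. These SDs include control mouse 15, which was highest in 65.2% of members and 26.5% of all tested probes, and are not given without it. The 3 probes of Mmp3 had SDs of 0.94, 1.04 and 1.06, above at least 99% of all tested probes, followed by Mmp13 with 0.85 and Mmp12 with 0.69. These genes have the AP-1 letters shown above in their promoters. Over the 6 tested probes of the 4 genes with these letters (Mmp1a, Mmp3, Mmp12 and Mmp13) the SD ranged from 0.24 to 1.06 with a median of 0.90. Over the 12 probes of 8 genes with a promoter without the letters, it ranged from 0.13 to 0.54 with a median of 0.31. Mmp1a, at 0.24, had the letters without the spread. It was dim (13.3 to 39.2), and the 16 added before log2 narrows the SD of dim probes. Mmp12, at 17.9 to 109, was dim as well. The part of the added 16 in the low SD of Mmp1a was not tested, and neither was a relation of the letters to the spread. Adamts4, Adamts7, Mmp2, Mmp9 and Mmp17, with SDs of 0.35, 0.58, 0.31, 0.49 and 0.35, had no matched promoter and were not counted. The genes with the letters are neighbours and 3 of the 6 probes were those of Mmp3, so that these counts are a description of 1 cluster.

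The sexes were compared with strain as a term. No member reached an adjusted p under 0.05 with limma (0.0192% of all tested probes did), and 1 of 23 did at an unadjusted p under 0.05 (4.35%, against 8.31%). With all 8 mice that member was higher in males, where 3.86% of all tested probes were higher and 4.45% lower. Of the 23 differences 16 were below 0 (69.6%, against 47.6% of all tested probes), that is, lower in males. Control mouse 15, which was highest in 15 of the 23 probes, was female, and these directions are given only with this mouse. Without it 1 of 24 members had an unadjusted p under 0.05 with limma (4.17%, against 9.3% of all probes). With all 8 mice the member at an unadjusted p under 0.05 was Adamts4. Its mean was 212 in male and 124 in female Nd2-mutant mice and 222 and 193 in male and female controls. The log2 fold change of males against females was 0.44 (unadjusted p = 0.0324, adjusted p = 0.578, limma). The next smallest unadjusted p-values from limma were those of Timp3 ILMN_2614759 (log2 fold change 0.37, unadjusted p = 0.0610) and Adamts2 ILMN_1221851 (-0.47, unadjusted p = 0.0933).

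Whether the strain difference itself differed between the sexes was tested as an interaction, with 2 mice for each strain and sex. No interaction of a member reached an adjusted p under 0.05 with limma (0.0096% of all tested probes did), and 0 of 23 had an unadjusted p under 0.05 (1.77% of all). The smallest p was that of Mmp9, which was 49.6 in male and 22.0 in female Nd2-mutant mice and 39.0 and 53.8 in male and female controls (interaction 1.0 on the log2 scale, unadjusted p = 0.0847 with limma). Adamts4 (0.54, unadjusted p = 0.146) and Mmp3 ILMN_2704576 (-1.59, unadjusted p = 0.149) followed, also from limma.

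Other genes of matrix turnover were read from lists set by function. Of 17 activators, other inhibitors and clearance receptors, 6 genes were tested, and at an unadjusted p under 0.05 with limma 1 of their 7 probes was lower and 0 were higher, where 3.13% of all tested probes were lower and 4.5% higher. It was Plaur, the receptor of urokinase, which helps to activate plasmin and through it pro-MMPs. Its intensities were 63.1, 126, 114 and 67.9 in Nd2-mutant mice 28, 32, 34 and 35 and 159, 162, 160.1 and 122 in control mice 15, 16, 17 and 37 (log2 fold change -0.66, adjusted p = 0.639, limma). The strains overlapped through mouse 32 and mouse 37. Of 18 related metalloproteinases, such as Adam9 and Adam17, 9 genes were tested. Of their 12 probes 0 had an unadjusted p under 0.05 with limma (7.63% of all tested probes).

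Of 20 substrates 15 genes were tested, and at an unadjusted p under 0.05 with limma 2 of their 16 probes were higher and 1 was lower, where 4.5% of all tested probes were higher and 3.13% lower. Lum, a small proteoglycan that binds collagen fibrils, had 214, 212, 265 and 254 in Nd2-mutant mice and 201, 53.1, 178 and 103 in control mice 15, 16, 17 and 37 (log2 fold change 0.88, adjusted p = 0.639, limma). The strains did not overlap. Dcn, a related proteoglycan, had 1642, 1676, 1609 and 2136 against 1347, 544, 1500.1 and 851 with the probe ILMN_2596346 (log2 fold change 0.82, adjusted p = 0.639, limma). Its other probe, ILMN_2747959, overlapped between the strains, and its log2 fold change was 0.12 (adjusted p = 0.883, limma). Lama1, a chain of basement membrane laminin, had 25.8, 66.9, 20.4 and 34.7 against 140.3, 65.9, 90.5 and 60.7 (log2 fold change -1.01, adjusted p = 0.639, limma).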

How the data were processed

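Gene expression of skin fibroblasts of 4 Nd2-mutant and 4 control mice was measured on 8 arrays, and the labels gave the strain, the sex and the number of each mouse. The authors used GenomeStudio to quantile normalize probe intensity and to subtract background, and deposited the intensity on a linear scale. A deposited detection p-value stands beside each intensity, for which the methods name a limit of 0.01. The 2 deposited tables are identical. Intensities ranged from -12.3 to 13935, and 26.2% were 0 or lower.

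Negative intensities were replaced by 0, and log2(intensity + 16) was used. The lmFit and eBayes functions of limma 3.58.1 (R 4.3.3) were run on all tested probes together, and 2-sided p-values were adjusted over these probes by the Benjamini-Hochberg method. Only rows of members and listed genes are printed. For single probes an exact permutation test was added. Mice were separate animals, and the number of arrays limits the precision.

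Values per mouse are given for members with an unadjusted p under 0.05 or no overlap, the 6 brightest, the 3 smallest p for sex and for the interaction, and Timp1 to Timp4, Mmp2, Mmp3, Mmp9, Mmp13, Mmp14, Adamts1, Adamts2 and Adamts5. Those of Mmp12 were added after its values were seen. Members and lists were chosen with earlier results of these data known. The steps were tested on simulated data. Each result was recomputed with 1 or 50 added, on the linear scale, with other detection filters, with the methods' t-test in place of limma, a variance trend, weights for the arrays or a term for sex, within each sex and without each mouse in turn. Promoters were read from RefSeq (GRCm38.p6).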

Additional observations from a re-analysis of the deposited data

Results flagged for a closer look

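In 3 of 38 groups of 4 mice, 1 mouse lay far from the other 3 of its strain, and about 1 in 20 groups (1.9 of 38) would be expected to do so by chance. Each time it was control mouse 15, which was the highest control. The ratio of its gap from the nearest control to the range of the controls was 0.915 for Adamts2 ILMN_1221851 (2154 against 863 to 973), 0.882 for Adamts2 ILMN_2729103 (9261 against 4746 to 5279) and 0.858 for Mmp14 (7570.2 against 4164 to 4648).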

How the results depend on the processing

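No named probe reached an adjusted p under 0.05 in the comparison of the strains under any of 18 alternatives, and 12 of 18 kept their direction under each (differences within 1 sex, which have no test, are not counted). Mmp17 was lower in all of them (-1.35 to -0.99 without a mouse each, smallest adjusted p 0.143 with limma, without control mouse 17). With array weights the sign turned for Mmp3 ILMN_2753809 (0.27), Mmp3 ILMN_2899041 (0.30) and Timp3 ILMN_2614759 (-0.024), and the median of members was 0.03. On the linear scale Adamts2 ILMN_2729103 was lower by an intensity difference of -69.9. Without a mouse each, 1 to 4 members had an unadjusted p under 0.05. There were 4 of 24 without control mouse 15, where 7.91% of all probes did. There was 1, Mmp17, without Nd2-mutant mouse 28 or 34 or control mouse 16, where 4.51%, 5.4% and 4.17% did. The share of all probes was 14% without control mouse 17. In the same fits 2 to 3 members had no overlap. It was 3 of 24 without control mouse 15, where 8.03% of all probes had none, against 4.37% with all 8 mice. The shares of all probes without overlap are not given for the other fits. In all of them 0 members passed adjustment, and the median was -0.23 to 0.0013. In these fits the sign turned within the ranges -0.062 to 0.26 (Adamts2 ILMN_2729103), -0.27 to 0.020 (Mmp14), -0.59 to 0.31 and -0.73 to 0.17 (Mmp3 ILMN_2753809 and ILMN_2899041), -0.19 to 0.0049 (Timp1 ILMN_2769918) and -0.013 to 0.27 (Timp3 ILMN_2614759). For sex, members with an unadjusted p under 0.05 numbered 4 of 54 without a filter (6.78% of all probes) and 0 with the methods' t-test (7.64%). With array weights they numbered 4 of 23 (20.7%), and without a mouse each 0 to 8. The 8 of 24 came without control mouse 37, where 17.3% of all probes did. The 0 came without Nd2-mutant mouse 28, 34 or 35 or control mouse 17, where 5.82%, 6.46%, 4.79% and 7.35% did. With array weights 1 passed adjustment (Adamts4, 0.72, adjusted p = 0.0244, limma). In that fit 20.7% of all probes had an unadjusted p under 0.05, against 8.31% in the main fit. The share of all probes that passed adjustment there is not given, so this is not read as a result about Adamts4. For the interaction the numbers were 3 of 54 without a filter (4.72%) and 0 to 4 without a mouse each (4 of 24 without control mouse 37, where 16.2% did), and 0 passed adjustment. The cause of these changes was not tested. No paired analysis was possible because each mouse number occurs in a single strain. A normexp correction, a centring of arrays by their median and a chip block were planned and not run, since the tables hold normalized values and name no chip. Differences of dim members such as Mmp1a and Mmp12 are limited by signal over background.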
